A study of Mus musculus with 36 samples.

Results

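The intercalated disc joins heart muscle cells end to end, and 10 of the genes that build it were followed here through mouse heart development: the connexins Gja1, Gja4, Gja5 and Gjc1, the desmosomal genes Dsp, Pkp2, Jup and Dsg2, and the adherens junction genes Cdh2 and Nrap. They were taken by gene symbol from the deposited array table, where 27 of 45101 probe sets carry one of these symbols. A probe set is a group of short array probes whose signals are combined into 1 value. Whole hearts of OF1 mice, an outbred strain with no engineered allele and no treatment named in the labels, were collected at 12 stages: every day from E10.5 to E19.5 (embryonic days), in young adults of 10 weeks and in old adults, whose age is 10 months in the methods and 14 months in the design text. The 36 arrays fall 3 to a stage. Those of the earliest stages, E10.5 and E11.5, held hearts of mixed sex, whereas each later stage had 1 array of female, 1 of male and 1 of mixed hearts.

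Heart muscle cells are coupled at the disc in several ways. Connexins assemble into gap junction channels that carry the electrical impulse from cell to cell. Desmosomes tie the intermediate filaments of neighbouring cells together, and adherens junctions tie their actin filaments and the ends of the myofibrils. In the immature heart these junctions are spread along the cell sides, and they gather at the cell ends as the heart matures, largely after birth.

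Values are log2 intensities normalized by robust multi-array average (RMA), so that a difference of 1 is a 2-fold difference. Each gene was read from its probe set with the highest mean over all arrays, and its other probe sets are given beside it. Gja4, Gja5, Jup and Nrap have a single probe set each, so no second set could be compared. Levels of different probe sets cannot be compared with each other on an array, so only differences of 1 probe set between stages are described. A stage mean above 5 was taken as expressed, a limit that 22 of the 27 probe sets passed in at least 1 stage. Of the 5 that did not, 1 is the single probe set of Gja5, so 9 of the 10 genes were measured above the limit.

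Arrays of a stage correlated at 0.969 to 0.996 over all probe sets. The labels call the tissue heart, although the extraction text in them speaks of liver. All 9 cardiomyocyte markers on the array lay above 5 at E10.5, E19.5 and both adult stages, with a mean level of 11.1 to 11.7, whereas all 4 liver markers (Alb, Afp, Ttr and Apoa1) lay at or below 5 at these stages. The control RNAs spiked into every hybridization were not level: their mean was 9.9 at E10.5, 11.16 at E19.5, 12.17 on young adult arrays and 11.37 in old adults. They ran from 9.68 to 10.35 on E10.5 arrays and from 12.03 to 12.43 on young adult arrays, without overlap. A fit with these controls as a covariate therefore compares E10.5 and young adult at a control level that the stages do not share. Among the 20685 expressed probe sets the median difference of E10.5 from young adult was 0.41, which became 0.05 when the values were quantile normalized again and -0.12 when each array was centred on its median. Small differences below should be read against these shifts.

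The promoters of Nrap, Dsp and Gja1 are shown because Nrap and Gja1 rose during gestation and Nrap and Dsp were higher still in young adults. RefSeq promoter sequences (GRCm38.p6) were given for 6 of the 10 genes: Gja1, Gja4, Gja5, Dsp, Jup and Nrap. The bases before the annotated start are printed 5′ to 3′ on the gene's strand. Capitals mark CANNTG, the E box bound by basic helix-loop-helix factors, in Nrap and Gja1, and GGGCGG, the GC box bound by Sp factors, in Dsp, on either strand.
Nrap, chr19:56390063-56390288, minus strand: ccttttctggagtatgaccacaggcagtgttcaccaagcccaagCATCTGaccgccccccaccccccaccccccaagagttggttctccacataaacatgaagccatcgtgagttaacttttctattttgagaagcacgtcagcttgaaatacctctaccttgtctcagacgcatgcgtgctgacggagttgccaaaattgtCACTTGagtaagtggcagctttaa
Dsp, chr13:38151044-38151293, plus strand: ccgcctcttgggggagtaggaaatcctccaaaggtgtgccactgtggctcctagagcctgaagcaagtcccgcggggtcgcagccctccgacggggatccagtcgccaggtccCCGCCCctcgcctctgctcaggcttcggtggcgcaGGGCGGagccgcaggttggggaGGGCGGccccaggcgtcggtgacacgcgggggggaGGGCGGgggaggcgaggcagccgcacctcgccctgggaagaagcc
Gja1, chr10:56377050-56377299, plus strand: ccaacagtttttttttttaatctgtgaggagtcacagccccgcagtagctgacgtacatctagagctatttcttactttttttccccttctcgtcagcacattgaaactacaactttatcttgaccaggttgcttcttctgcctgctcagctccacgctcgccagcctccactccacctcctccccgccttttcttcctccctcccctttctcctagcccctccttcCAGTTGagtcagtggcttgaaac
In a window of 250 bases, GGGCGG was found in 5 of the 6 promoters (Gja4, Gja5, Dsp, Jup and Nrap) and in 32.7% of all 32851 promoters. Dsp held 4 matches, and its window was 72.4% G or C against a median of 52.4% over all promoters. CANNTG was found in Gja1 and Nrap and in 66.2% of all promoters. The letters AGATAA, bound by factors of the Gata family, were found in Gja1 and in 9.99% of all promoters. TATAAA and GGAATG (the motif of TEAD factors) were found in none of the 6, and in 12.4% and 12.6% of all. A match describes the letters of the window and is no evidence of binding.

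Between E10.5 and young adulthood 3 genes changed strongly. In the sets read, Nrap rose 18.21-fold and Dsp 6.99-fold, whereas Cdh2 fell 4.13-fold. The second expressed set of Dsp moved less, from a mean of 9.36 to 10.52. That of Cdh2 went from 9.68 to 7.80. In the probe sets read for the genes, these 3 met the limits of the study for a differentially expressed gene (DEG). These limits are an adjusted p under 1e-05, a log2 difference above 2 and a stage mean above 5. They were met by 6.53% of all probe sets, or 2945 of the 20685 expressed ones. Of the other member probe sets, 1 of Gjc1 met them too. At an adjusted p under 0.05, 6 of the 10 genes were called, 2 higher and 4 lower at E10.5. So were 63% of all probe sets and 15273 of the 20685 expressed ones. The count of genes called is therefore close to what any probe set showed, and the sizes and the shapes of the profiles carry more information than the calls. Of the 27 probe sets, 19 were called, 10 higher and 9 lower at E10.5. In a comparison of bulk tissue, fewer cells of a type and less RNA per cell cannot be told apart.

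**Figure D1:**
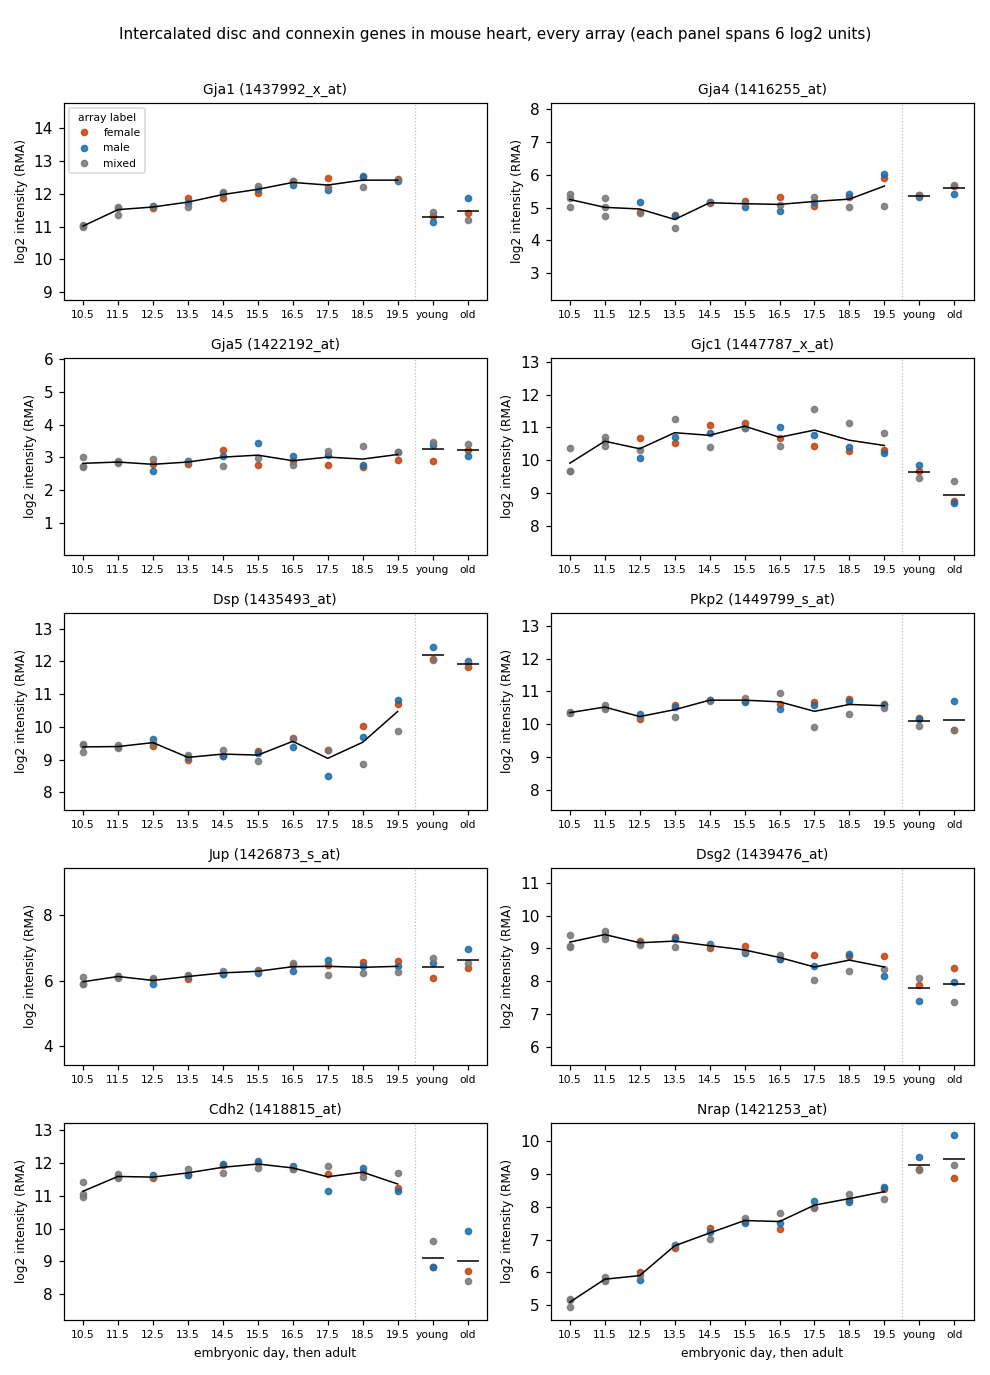
Log2 intensity of the probe set read for each gene on every array, by embryonic day and in young and old adults. Points are arrays coloured by the sex label, lines join the embryonic stage means and dashes mark the adult means. Nrap rises through gestation to 8.46 at E19.5, Dsp stays between 9.04 and 9.56 until E18.5 and is at 12.19 on young adult arrays, and Cdh2 is above 11 at every embryonic stage and at 9.09 on young adult arrays.

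Gja1 encodes the main connexin of the working ventricular muscle. Its values were 11.06, 11.00 and 11.02 on the E10.5 arrays, 12.45, 12.39 and 12.41 at E19.5, 11.13, 11.45 and 11.32 on young adult arrays and 11.86, 11.20 and 11.41 in old adults. All E19.5 arrays lay above all E10.5 and all adult arrays. Gja1 thus rose before birth, by 1.39 ± 0.137 (SE; limma, adjusted p = 1.7e-09), and was 2.17-fold higher at E19.5 than on young adult arrays (difference 1.12 ± 0.137, adjusted p = 1.2e-07). The difference between E10.5 and young adult was -0.27 ± 0.137 (adjusted p = 0.0823). It was called under each of 3 other settings: -0.48 after a further quantile normalization, -0.80 after median centring and -0.90 with the hybridization controls as a covariate.

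Gja1 is represented by 6 probe sets. Between E10.5 and E19.5, 5 of them rose by 1.34 to 1.43, including 1 whose stage means all stayed below 5. The remaining set, 1415800_at, had a larger spread between arrays and a difference of 0.37 ± 0.388 (adjusted p = 0.437). From E19.5 to young adult the fall was called in 4 of the 6 sets, by 0.53 to 1.12. Stage means went from 11.02 at E10.5 to 11.52 a day later and 12.35 at E16.5, and lay between 12.27 and 12.42 from then to E19.5. The slope over the embryonic days was 0.147 ± 0.0112 per day (adjusted p = 1.2e-12), and it stayed between 0.131 and 0.183 under the 7 other settings tried.

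Gjc1 encodes the connexin found early in the heart tube and later in the conduction system. Its probe sets did not agree before birth. The set with the higher mean, 1447787_x_at, was at 9.66, 9.68 and 10.38 at E10.5, at 10.31, 10.22 and 10.83 at E19.5 and at 9.85, 9.45 and 9.67 on young adult arrays. It was higher at E19.5 than on young adult arrays by 0.80 ± 0.265 (adjusted p = 0.0218) and did not pass the test between E10.5 and E19.5 (-0.55 ± 0.265, adjusted p = 0.0901). The other set, 1449094_at, was at 9.13, 9.07 and 8.96 at E10.5, at 8.43, 8.25 and 7.96 at E19.5 and at 7.20, 6.76 and 7.03 on young adult arrays, with no overlap between these stages. It was higher at E10.5 than at E19.5 by 0.84 ± 0.161 (adjusted p = 9.9e-05) and higher at E10.5 than on young adult arrays by 2.06 ± 0.161, a 4.16-fold difference that met the DEG limits (adjusted p = 2.7e-12). Both sets were lower on young adult arrays than at E19.5, by 1.22 ± 0.161 in the second (adjusted p = 4.7e-07). In 1447787_x_at this call was lost without the mixed E19.5 array (0.61) or the mixed young adult array, after quantile normalization (0.79) and after median centring (0.62). As for the set read for Gja1, the ending _x_at marks probes that can match other transcripts. The mean SD within a stage was 0.33 for 1447787_x_at, the largest among the sets read for the 10 genes. The difference of E10.5 from young adult in 1447787_x_at, 0.25 as deposited, was -0.27 after median centring, -0.09 after quantile normalization and 2.40 with the hybridization controls as a covariate, so that set gives no settled direction.

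Gja4 encodes a connexin of arterial endothelium. Its stage means lay between 4.64 at E13.5 and 5.66 at E19.5, near the expression limit. It was not called for E10.5 minus young adult (-0.12 ± 0.184, adjusted p = 0.573), E19.5 minus young adult (0.29 ± 0.184, adjusted p = 0.259) or E10.5 minus E19.5 (-0.41 ± 0.184, adjusted p = 0.0683). E10.5 minus E19.5 was called after quantile normalization (-0.55), after median centring (-0.75) and with the hybridization controls as a covariate (-0.70). After median centring, E10.5 minus young adult was called too (-0.65). At E19.5 the arrays were spread from 5.05 in the mixed hearts to 5.92 in the female and 6.02 in the male. Over the embryonic days its slope was 0.048 ± 0.0181 per day (adjusted p = 0.0204), a call that was lost without either the female or the male E19.5 array, where the slope was as low as 0.034. Over the same days the mean of 8 endothelial markers went from 6.17 (5.80 to 6.46 over arrays) at E10.5 to 6.85 (6.33 to 7.13) at E19.5 and 7.49 on young adult arrays, with Pecam1 at or below 5 at E10.5 and E19.5. The part of endothelial cells in the Gja4 values was not tested.

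Gja5 encodes a connexin of the atria and the ventricular conduction system. Its single probe set stayed between stage means of 2.79 and 3.25, below the limit at every stage, and the order of its stages held no neighbouring pair without overlap of the arrays. Its call between E10.5 and young adult (-0.43 ± 0.178, adjusted p = 0.0366) lies in this range, was lost in 4 of the 6 fits that left out 1 array, and turned to 0.66 with the hybridization controls as a covariate. The 6 markers of the conduction system on the array averaged 7.47 at E10.5, 6.81 at E19.5 and 6.31 on young adult arrays, with Cntn2 at or below 5 at these stages. The atrial markers Nppa, Myl7, Sln and Myl4 averaged 10.11, 9.52 and 10.79 at the same stages, with Sln at or below 5 at E10.5. No level of Gja5 can be read from this set.

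**Figure D2:**
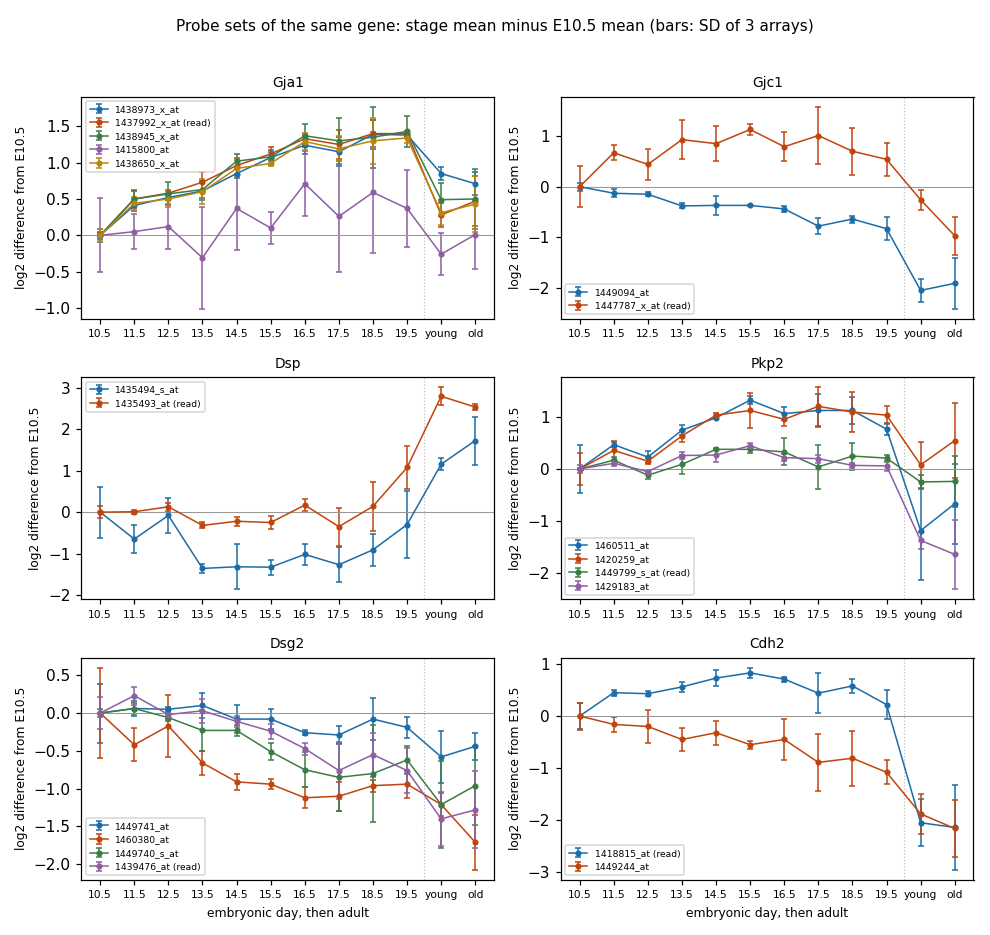
Stage mean minus the E10.5 mean, in log2 units, for every probe set above 5 in at least 1 stage of the 6 genes with several such sets. Bars are SDs of 3 arrays. The Gja1 sets ending in _x_at run together, whereas the 2 sets of Gjc1 and the 2 of Cdh2 part before birth, and the Pkp2 sets 1429183_at and 1460511_at lie 1.38 and 1.19 below E10.5 in young adults.

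Dsp encodes desmoplakin, which anchors intermediate filaments to the desmosome. Its values were 9.45, 9.49 and 9.23 at E10.5, 10.02, 9.70 and 8.86 at E18.5, 10.70, 10.83 and 9.87 at E19.5, 12.44, 12.05 and 12.08 on young adult arrays and 12.00, 11.96 and 11.84 in old adults. Stage means stayed between 9.04 and 9.56 up to E18.5. All adult arrays lay above all embryonic arrays. Young adults were 6.99-fold above E10.5 (-2.80 ± 0.222 for E10.5 minus young adult, adjusted p = 3.4e-12) and 3.30-fold above E19.5 (-1.72 ± 0.222, adjusted p = 3.1e-07). The DEG limits were met at each stage from E10.5 to E18.5 and not at E19.5.

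In the set read for Dsp, 1 daily step was called, that of the last embryonic day, 0.94 ± 0.222 from E18.5 to E19.5 (adjusted p = 0.026). At both stages the mixed array was lowest, so that its E19.5 value of 9.87 fell below the E18.5 female value of 10.02. The step was 0.61 without the E18.5 mixed array, and the call was lost without the male or mixed array of E18.5 or the female or male array of E19.5. The means of the cardiomyocyte, atrial, fibroblast and erythroid markers were all lowest on the mixed arrays of both stages. For the cardiomyocyte markers the mean was 11.38 there against 11.83 and 11.59 on the female and male arrays of E18.5, and 11.48 against 11.82 and 11.81 at E19.5. For the atrial markers it was 8.56 against 9.31 and 9.53, and 8.90 against 10.22 and 9.44. The fibroblast mean at E19.5 was 9.86 on the mixed array against 10.07 and 9.87. The erythroid means lay between 3.74 and 3.96 on these arrays, with 1 of the 5 markers above 5. The part of these marker lists in the step was not tested.

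The second expressed set of Dsp, 1435494_s_at, agreed on the rise after birth (-1.46 ± 0.333 for E19.5 minus young adult, adjusted p = 0.000987) and not on the course before it. It was 9.36 ± 0.62 (SD) at E10.5 and 9.28 ± 0.43 at E12.5, was 1.29 ± 0.333 (SE) lower at E13.5 than the day before (adjusted p = 0.0459), and reached 9.06 ± 0.81 (SD) at E19.5. On young adult arrays it was 10.52 ± 0.15 (SD). Its rise from E10.5 to young adult was thus smaller than in the set read, which went from 9.39 to 12.19. Between E10.5 and E19.5 the first set rose by 1.08 ± 0.222 (SE; adjusted p = 0.000214). The second set gave 0.30 ± 0.333 in the other direction (adjusted p = 0.468), and the mean of both gave a rise of only 0.39 that was not called (adjusted p = 0.205). The third set, 1427610_at, had no stage mean above 2.80.

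Pkp2 encodes plakophilin, an armadillo protein that links the desmosomal plaque together. The set with the highest mean, 1449799_s_at, moved little: stage means ran from 10.10 in young adults to 10.73 at E14.5, and neither E10.5 (0.25 ± 0.184, adjusted p = 0.239) nor E19.5 (0.46 ± 0.184, adjusted p = 0.0604) passed the test against young adult. At E19.5 this set was called with the expression filter before the fit (0.46, adjusted p = 0.0445), after quantile normalization (0.44, adjusted p = 0.0237) and with the sex label as a block (0.46, adjusted p = 0.0496). Each of the other 3 sets did pass it at E19.5. Their differences were 1.96 ± 0.303 in 1460511_at (adjusted p = 6.0e-06), 1.44 ± 0.173 in 1429183_at (adjusted p = 7.9e-08) and 0.96 ± 0.253 in 1420259_at (adjusted p = 0.00389). The mean of all 4 sets was 1.21 higher at E19.5 than on young adult arrays (adjusted p = 8.5e-06). Before birth the set read had a slope of 0.024 ± 0.0138 per day (limma, adjusted p = 0.119). Slopes were called in 1460511_at (0.106 ± 0.0205, adjusted p = 5.2e-05) and 1420259_at (0.127 ± 0.0184, adjusted p = 6.5e-07). In 1429183_at the slope was 0.010 ± 0.0106 (adjusted p = 0.42), and the mean of the 4 sets gave 0.067 (adjusted p = 9.3e-05). E10.5 minus E19.5 was -0.21 in the set read and was not called as deposited. It was called after quantile normalization (-0.48), after median centring (-0.55) and with the hybridization controls as a covariate (-0.78). The mean of the 4 sets gave -0.52, which was called too. The result for Pkp2 therefore depends on the probe set, with the same sign in all 4 for E19.5 minus young adult as deposited. With the hybridization controls as a covariate, the set read for the gene gave -0.00 at E19.5 and -0.79 at E10.5 against young adult.

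Jup encodes plakoglobin, which serves both desmosomes and adherens junctions. Its range was narrow, with means of 5.97 ± 0.12 (SD, n = 3) at E10.5, 6.44 ± 0.17 at E19.5, 6.43 ± 0.32 on young adult arrays and 6.64 ± 0.30 in old adults. It rose between E10.5 and E19.5 by 0.46 ± 0.148 (SE; adjusted p = 0.0123), with a slope of 0.056 ± 0.00889 per day (adjusted p = 3.2e-06), and the E19.5 value minus that of young adults was 0.00 ± 0.148 (adjusted p = 0.997). The E10.5 arrays (5.90, 5.90 and 6.12) did not overlap with those of E19.5 (6.59, 6.46 and 6.26). The female young adult array, at 6.08, lay within the range of E10.5. The difference of E10.5 from young adult was -0.46 ± 0.148 (adjusted p = 0.0084), and it was not called without the mixed young adult array (-0.33). The call between E10.5 and E19.5 was lost without the female E19.5 array (-0.38).

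Dsg2 encodes desmoglein, a desmosomal cadherin. Its values were 9.05, 9.08 and 9.42 at E10.5, 8.76, 8.16 and 8.37 at E19.5 and 7.38, 8.09 and 7.89 on young adult arrays, with no overlap between these stages. E10.5 was 2.64-fold above young adult (1.40 ± 0.206, adjusted p = 8.9e-07) and higher than E19.5 by 0.76 ± 0.206 (adjusted p = 0.00363). The slope was -0.106 ± 0.0138 per day (adjusted p = 9.1e-08). The sets 1449740_s_at and 1460380_at fell too, with E10.5 higher than young adult by 1.22 ± 0.26 (adjusted p = 0.00019) and 1.21 ± 0.21 (adjusted p = 1.2e-05). From E14.5 on, the stage means of 1460380_at were below 5. Another expressed set, 1449741_at, moved less, from 5.89 ± 0.39 (SD) at E10.5 to 5.31 ± 0.34 on young adult arrays. The call of Dsg2 for E10.5 against young adult was lost only with the hybridization controls as a covariate (0.56, adjusted p = 0.301), among the settings tried. The difference of E10.5 from E19.5 was not called after quantile normalization (0.36), median centring (0.41) or with that covariate (0.29). The difference of E19.5 from young adult was 0.64 ± 0.206 (adjusted p = 0.0173), a call lost without the female E19.5 array or the male young adult array (0.44), after median centring (0.46), with the covariate (0.27) and in a fit of only the arrays compared (adjusted p = 0.0725).

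Cdh2 encodes N-cadherin, the classical cadherin of the cardiac adherens junction. Its values were 11.04, 10.95 and 11.43 at E10.5, 11.25, 11.15 and 11.69 at E19.5, 8.83, 9.61 and 8.84 on young adult arrays and 9.92, 8.39 and 8.70 in old adults. Every embryonic array lay above every adult array. E19.5 was 4.82-fold above young adult (2.27 ± 0.244, adjusted p = 1.1e-08) and E10.5 was 4.13-fold above it (2.05 ± 0.244, adjusted p = 2.0e-08). The DEG limits were met at all 10 embryonic stages.

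Within gestation the main set of Cdh2 rose to 11.97 ± 0.10 (SD) at E15.5 and came back to 11.36 ± 0.28 at E19.5, with no daily step called. The second set, 1449244_at, fell over gestation: its E10.5 mean was 9.68 ± 0.26, its E19.5 mean 8.60 ± 0.23 and its young adult mean 7.80 ± 0.39. Its slope was -0.109 ± 0.0183 (SE) per day (adjusted p = 7.4e-06), against 0.021 ± 0.0175 in the main set (adjusted p = 0.272). The fall after birth was thus shared by both sets, and the course before it was not: the difference of E19.5 from young adult was 0.80 ± 0.271 in the second set (adjusted p = 0.0243).

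Nrap encodes the nebulin-related anchoring protein, which links the ends of the myofibrils to the adherens junction and takes part in myofibril assembly. Its values were 4.93, 5.18 and 5.15 at E10.5, 8.20, 8.15 and 8.40 at E18.5, 8.53, 8.60 and 8.23 at E19.5, 9.53, 9.13 and 9.16 on young adult arrays and 10.18, 9.28 and 8.88 in old adults. The arrays of E10.5, E19.5 and young adult did not overlap. Most of the rise took place before birth: E10.5 was below E19.5 by 3.37 ± 0.192 (adjusted p = 8.5e-15), and E19.5 was below young adult by 0.82 ± 0.192 (adjusted p = 0.00136). From E10.5 to young adult the difference was 4.19 ± 0.192, or 18.21-fold (adjusted p = 7.3e-18). On the RMA scale low values are compressed, and E10.5 lay at the expression limit, so this fold is approximate. The rise rests on the single probe set of Nrap, 1421253_at.

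Nrap rose in 8 of 9 daily steps, with stage means of 5.09, 5.79, 5.90, 6.81, 7.20, 7.58, 7.55, 8.05, 8.25 and 8.46. The steps to E11.5 (0.70 ± 0.192, adjusted p = 0.0429) and to E13.5 (0.91 ± 0.192, adjusted p = 0.0169) were called. The slope was 0.369 ± 0.0168 per day (adjusted p = 4.5e-18), the steepest of the 10 genes, and 0.321 to 0.405 under 7 other settings. Over the same days the 9 cardiomyocyte markers went from a mean of 11.28 (11.11 to 11.37 over arrays) at E10.5 to 11.70 (11.48 to 11.82) at E19.5 and 11.10 on young adult arrays. The 6 fibroblast markers went from 8.55 to 9.93 and 9.07, and the 5 erythroid markers from 9.54 to 3.85 and 3.88. The part of cell composition in any of these profiles was not tested.

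**Figure D3:**
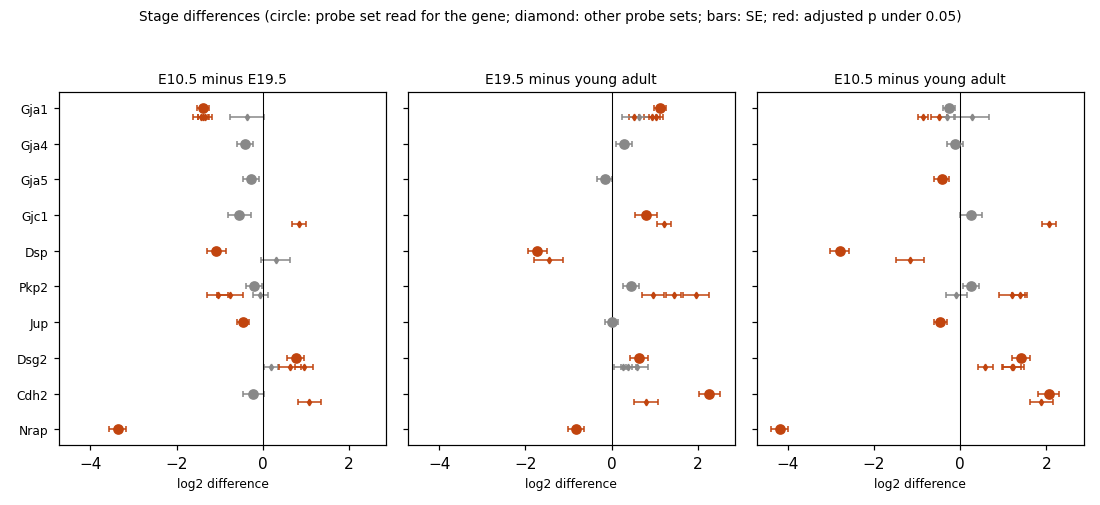
Log2 differences between E10.5, E19.5 and young adult for each gene, with SEs. Circles are the probe sets read for the genes, diamonds other sets of the same genes, and red marks an adjusted p under 0.05. The sets read for Nrap and Dsp lie left of 0 in all 3 comparisons, that of Gja1 lies at -1.39 for E10.5 minus E19.5 and at 1.12 for E19.5 minus young adult, and that of Cdh2 lies at 2.27 for E19.5 minus young adult.

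The comparison of E19.5 with young adult asks what changes around and after birth. It called 6 of the 10 genes, where 29.1% of all probe sets and 9473 of the 20685 expressed ones were called. Cdh2, Gja1, Gjc1 and Dsg2 were higher at E19.5, and Dsp and Nrap were lower. By the DEG limits 1 gene, Cdh2, was called, against 1.45% of all probe sets, or 655 of the 20685 expressed ones. The comparison of E10.5 with E19.5, which covers gestation, called 5 genes. It called 45.5% of all probe sets and 12885 of the 20685 expressed ones. Dsg2 was higher at E10.5, and Gja1, Dsp, Jup and Nrap were lower. By the DEG limits the comparison called 1 gene, Nrap, against 2.18% of all probe sets, or 983 of the 20685 expressed ones. These comparisons share arrays, so their values are given side by side and their calls are not independent.

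In the sets read, the slope over embryonic days was called for 5 genes, Gja1, Gja4, Jup and Nrap upward and Dsg2 downward. It was called for 67.6% of all probe sets and for 15265 of the 20685 expressed ones. Of the 90 steps from 1 embryonic day to the next, 4 were called, against 0.592% of all probe sets in the 9 steps together: Gja1 and Nrap from E10.5 to E11.5, Nrap from E12.5 to E13.5 and Dsp from E18.5 to E19.5. The step of Gja1 was 0.49 ± 0.137 (adjusted p = 0.048). Each of these 4 calls was lost in 4 or 5 of the 6 fits that left out 1 of its arrays, and the number called ranged from 2 to 5.

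Old and young adults did not differ in any of the 10 genes by limma at an adjusted p under 0.05, where 6.96% of all probe sets did. At an unadjusted p under 0.05 there was 1 gene, Gjc1 (-0.72 ± 0.265, adjusted p = 0.0944), in the set whose direction was not settled above. The other Gjc1 set gave 0.14 ± 0.161 (adjusted p = 0.648). The old adult arrays were far apart. The male array was the highest of the 3 for Nrap (10.18), Cdh2 (9.92), Gja1 (11.86), Pkp2 (10.69), Jup (6.98) and Dsp (12.00). It was the lowest for Gjc1 (8.69), Gja4 (5.41) and Gja5 (3.05), and in the middle for Dsg2 (7.98). Its cardiomyocyte markers averaged 11.92 against 11.14 and 11.24 on the other arrays. The atrial markers averaged 12.26 on the female old adult array against 9.95 and 9.47 on the male and mixed ones. SDs in old adults were 0.67 for Nrap and 0.81 for Cdh2. Leaving out any of the 6 adult arrays still called 0 genes.

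Male and female hearts were compared at 9 stages, E13.5 and later, in a fit that keeps the stage as a block (18 arrays). None of the 10 genes was called, where 0.0488% of all probe sets were. At an unadjusted p under 0.05 there was 1 gene, Dsg2, lower in males by 0.21 ± 0.0897 (limma, adjusted p = 0.6). Its set 1449740_s_at gave -0.23 ± 0.0967 (adjusted p = 0.604).

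**Figure D4:**
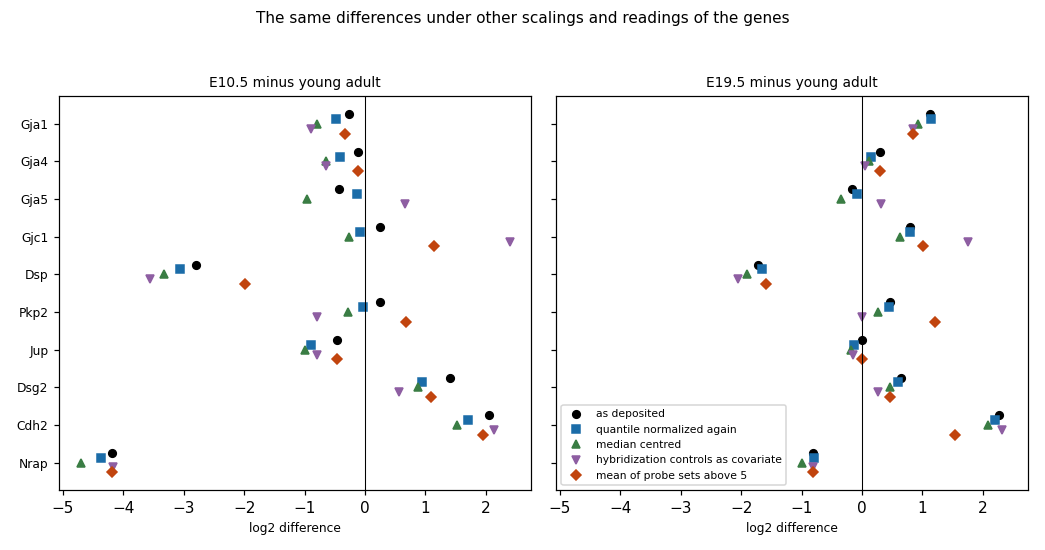
Log2 differences of E10.5 and of E19.5 from young adult for each gene. They are shown as deposited, after quantile normalization and median centring, with the hybridization controls as a covariate, and for the mean of the expressed probe sets. Nrap, Dsp and Cdh2 keep their side of 0 under all of them, whereas Gjc1 at E10.5 ranges from -0.27 to 2.40 and Pkp2 from -0.79 to 0.68.

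Over the 8 alternative settings other than leaving out an array, the difference of E10.5 from young adult ran from -4.71 to -4.16 for Nrap, from -3.56 to -1.99 for Dsp and from 1.52 to 2.14 for Cdh2. The difference of E19.5 from young adult ran from 0.84 to 1.14 for Gja1, from -2.06 to -1.59 for Dsp, from 1.54 to 2.31 for Cdh2 and from -1.0 to -0.80 for Nrap. Each of these kept its direction and its call.

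Among other genes of the disc, most of those of the adherens junction were higher early. Of 14 genes on this list, 12 were expressed. At E10.5, 11 of the 12 were called higher than in young adults and none lower, with a median of 1.03 against 0.41 over all expressed probe sets, of which 10037 of 20685 were called higher. At E19.5, 6 were higher and 2 lower, against 6065 higher and 3408 lower of the 20685. The largest differences of E10.5 from young adult were in Nectin3 (2.69 ± 0.284, adjusted p = 1.9e-09) and Nectin2 (2.08 ± 0.169, adjusted p = 6.1e-12), cell adhesion molecules of the immunoglobulin family. Ctnnd1, the catenin that binds the cadherin tail near the membrane, differed by 1.71 ± 0.2 (adjusted p = 1.4e-08), and Vcl, which encodes vinculin, by 1.60 ± 0.244 (adjusted p = 1.5e-06). The other probe sets of Nectin3 gave 0.44 to 3.03 in the same direction, whereas those of Tln1 (talin) disagreed, with 1.15 in the set read and -0.80 and 2.62 in the others. Median centring lowers every difference of E10.5 from young adult by 1 fixed amount. It took the median over all expressed probe sets from 0.41 to -0.12.

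Of 21 scaffold and anchoring genes of the disc, 19 were expressed, of which 8 were higher and 1 lower at E10.5 than in young adults, with a median of 0.39, close to the 0.41 over all expressed probe sets, of which 10037 were higher and 5236 lower of 20685. Ank3, which encodes ankyrin-G and anchors sodium channels at the disc, was higher by 2.25 ± 0.162 (adjusted p = 3.9e-13) and Bves, a Popeye domain gene, by 2.18 ± 0.245 (adjusted p = 6.4e-09). Xirp1, which encodes an actin-binding repeat protein of the disc, was higher by 1.45 ± 0.351 (adjusted p = 0.000756). The gene that was lower was Myzap, which encodes a zonula adherens protein of muscle (-1.33 ± 0.361, adjusted p = 0.00217). Bves was also higher at E19.5 than on young adult arrays, by 1.86 ± 0.245 (adjusted p = 4.6e-07). The count and the median hold for the sets read. For E10.5 minus young adult, Cxadr gave -0.34 in the set read and 2.24 in another expressed set. Ank2 gave 0.47 and 2.36, and Ehd3 gave -0.11 and -0.96. The other sets of Ank3 gave 1.21 to 2.86, and that of Bves gave 2.27.

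Of 9 other cadherins, 6 were expressed, 2 higher and 4 lower at E10.5 than in young adults, with a median of -1.06. Of all 20685 expressed probe sets, 10037 were higher and 5236 lower. Cdh4 and Cdh15 passed the expression limit only in young adults, at 5.04 and 5.08, so that limit fixed their direction. They are among the 4 lower genes and are part of the median. Cdh3 passed the limit only from E10.5 to E14.5. Cdh11, a cadherin of mesenchyme, was higher by 3.42 ± 0.506 (adjusted p = 9.8e-07), and Cdh3, the placental cadherin, by 1.25 ± 0.148 (adjusted p = 1.8e-08). Cdh13, a cadherin without a cytoplasmic tail, was at -2.34 ± 0.258 (adjusted p = 4.1e-09), and Cdh15, a cadherin of skeletal muscle, at -1.33 ± 0.214 (adjusted p = 3.8e-06). Among connexins and pannexins outside the 10 genes, Panx1, which encodes a membrane channel protein, was higher at E10.5 than in young adults by 0.47 ± 0.198 (adjusted p = 0.0394). Its stage means lay between 4.78 and 5.72, and this difference is smaller than the shift that median centring makes. Gja3, a connexin gene, falls outside the rule for naming and was chosen after its values were seen. It was at 3.56 at E10.5, 5.79 at E19.5 and 4.10 on young adult arrays (1.69 ± 0.375 for E19.5 minus young adult, adjusted p = 0.000752). Dsc2, a desmosomal gene, was below the limit in the set read for it, but another of its sets was expressed. That set was 1.57 higher at E10.5 than in young adults. Of the 10 other desmosomal genes on the array, 2 were expressed in the set read, Pkp4 and Perp. Neither differed past the test between E10.5 and young adult (-0.16 ± 0.114, adjusted p = 0.222, and 0.17 ± 0.36, adjusted p = 0.69).

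The members did not share a single profile. Over the 12 stage means, which come from the same 36 arrays, Pearson's r was -0.946 between Dsp and Cdh2, 0.940 between Nrap and Jup, -0.910 between Nrap and Dsg2 and 0.912 between Gjc1 and Cdh2, and it was 0.083 between Gja1 and Gja4. These are descriptions of 12 points that share arrays and scaling. Within genes, the expressed sets of Gja1 ending in _x_at had r of 0.905 to 0.996, the 2 sets of Cdh2 0.850 and the 2 of Gjc1 0.680. The Gja1 set 1415800_at had 0.627 to 0.773 with the other expressed sets of Gja1. Among the Pkp2 sets r ran from 0.468 to 0.896.

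Among 7906 genes whose stage means were above 5 in at least 1 stage and spanned over 1 log2 unit, those with the profile most like Nrap were Robo4 (r = 0.994), Adap2 (0.993) and Nova2 (0.989). For Dsp they were Glul (0.988), Slc27a4 (0.986) and Rab6a (0.985), and for Cdh2 they were Gnas (0.997), Zfp821 (0.995) and Ror1 (0.995). For Gja1 they were Lrrtm2 (0.978), 9530067D14Rik (0.972) and Rgs2 (0.972). For Gjc1 they were Tmco3, Mtpn and Magi3 (0.987 to 0.991), for Dsg2 Mdk, Gpr22 and Meis2 (0.983 to 0.987), and for Jup Atp8b1, Ptprm and Il15ra (0.978 to 0.989). For Pkp2 they were Phldb2, Mef2c and Parp8 (0.915 to 0.926), for Gja4 Slc25a4, Cyc1 and Col4a1 (0.884 to 0.897), and for Gja5, whose set was below the limit, Map4k2, BC004004 and Resf1 (0.945 to 0.963). With 12 points and 7906 genes, values of this size describe shape alone.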

How the data were processed

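RNA from whole hearts was hybridized to 36 Affymetrix Mouse430_2 arrays. The deposited values are log2 intensities of 45101 probe sets, which the authors normalized by RMA in Affymetrix Expression Console. No depth applies to arrays, and 3 arrays per stage limit the precision. Whether the arrays of a stage came from separate litters is not given in the sources used here, so p-values measure only the spread between these arrays. Groups came from the labels, and 0 sample columns were left unused. A fit with 12 stage means was made over all probe sets with limma 3.58.1 in R 4.3.3, with Benjamini-Hochberg adjustment within each comparison. Slopes used the 30 embryonic arrays. The script was tested on simulated data. Genes were called at adjusted p under 0.05. Besides the members, up to 4 called genes of each list with the largest difference of E10.5 from young adult were named, and for each member the 3 genes of most similar profile. Members and lists were chosen with earlier results of these data known. Alternatives were another normalization, filter, variance model, covariate, block, probe set rule and set of arrays. Of the probe sets, 35208 had a Gene ID in the RefSeq table and 6937 had none. Symbols not matched on the array were not analysed here, and 1 result of a pathway list is not reported here.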

Additional observations from a re-analysis of the deposited data

How the results depend on the processing

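The number of the 10 genes called against young adult stayed within 1.5 times its value under all settings except the DEG limits, which gave 3 at E10.5 and 1 at E19.5. Between E10.5 and E19.5, median centring called 8 genes and the DEG limits 1. For the embryonic slope, quantile normalization called 8 genes, median centring 10, the hybridization covariate 8 and the DEG limits 0. Of the daily steps, the covariate and the mean of expressed probe sets each called 2 and the DEG limits 0. Leaving out 1 array gave 4 to 6 genes for E10.5 and 5 to 6 for E19.5 against young adult, 4 to 6 for E10.5 against E19.5, 5 to 7 for the slope, 2 to 5 daily steps, and 0 to 0 for age and for sex. The sex label as a replicate block, which marks no shared animal or litter, gave 6, 7, 6 and 6 genes for these first 4 comparisons, 0 for age and 3 daily steps. Sex without its stage block gave 0.

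Some values that were not called, or lay below the expression limit, turned sign, and some of them were then called in the other direction. For E10.5 minus young adult, Gja5 was 0.66 with the covariate, Gjc1 was -0.09 after quantile normalization and -0.27 after centring, and Pkp2 was -0.04, -0.28 and -0.79 under quantile normalization, centring and the covariate. For E19.5 minus young adult, Gja5 was 0.32 and Pkp2 -0.00 with the covariate, and Jup was -0.14, -0.18 and -0.15 under those 3 settings and -0.18 to 0.13 with 1 array left out. For E10.5 minus E19.5, the covariate gave 0.34 for Gja5 and 0.65 for Gjc1, and the mean of probe sets gave 0.14 for Gjc1 and 0.43 for Cdh2. The slope of Gja5 was -0.000 after quantile normalization and -0.019 with the covariate. With the covariate and with the mean of probe sets, the slope was -0.089 and -0.020 for Gjc1 and -0.028 and -0.044 for Cdh2. By limma, the turned values that were called included Pkp2 for E10.5 minus young adult (-0.79, adjusted p = 0.0473), with the covariate. With the same setting they included Gjc1 for E10.5 minus E19.5 (0.65, adjusted p = 0.0139) and the Gjc1 slope (-0.089, adjusted p = 0.000451). The Cdh2 slope was called with the mean of probe sets (-0.044, adjusted p = 0.00322). The cause was not tested. Of 334 gene values under alternatives, 257 kept their direction and side of the threshold.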
